A study of Mus musculus with 7 samples.

Results

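Rab GTPases are the largest branch of the Ras-like small GTPases and mark the membranes between which vesicles move. The genes described here were all those whose mouse symbol is Rab followed by a number and, where present, a letter and a further digit, which gave 59 of 52550 annotated genes. RNA was measured by sequencing in 7 libraries of Paneth cells sorted from the small intestine. All mice of both groups were C57BL/6J and carried Lgr5-EGFP-IRES-CreERT2, a knock-in allele that places a green reporter and an inducible recombinase under the Lgr5 promoter. For the 4 DSS libraries, dextran sulfate sodium, which damages the gut lining, was given at 3% in the drinking water for 7 days, and the mice were killed 3 days after it was withdrawn. The 3 control libraries came from mice on plain water. The water mice were 12, 12 and 10 weeks old and the DSS mice 12, 10, 10 and 10 weeks old. The sort took live cells by CD24 and side scatter and left out those with red cell, endothelial or white blood cell surface markers. The comparison addresses how Paneth cells stand shortly after DSS injury. Whether each library is 1 animal is not spelled out in the labels, so the tests reflect only how these libraries vary.

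A Rab protein is switched on when an exchange factor loads it with GTP, recruits effectors to its membrane, and is switched off by a GTPase-activating protein. Prenyl groups on cysteines at its end hold it in the membrane, and GDI proteins lift it out again. Each membrane carries its own members: Rab1 and Rab2 act between the endoplasmic reticulum (ER) and the Golgi, Rab5 on early endosomes, Rab7 on late endosomes, Rab11 and Rab25 on recycling endosomes, and Rab3 and Rab27 on secretory granules that wait under the plasma membrane. Paneth cells store lysozyme and alpha-defensins in such granules and release them towards the crypt lumen. Rab3d and Rab26 are known from exocrine cells of the pancreas and stomach as genes that the factor Mist1 (Bhlha15) controls, and Rab27a is known for granule docking in lymphocytes and pigment transport.

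The stretch of coding sequence that the members share is the phosphate-binding loop, whose final codons for glycine, lysine and serine or threonine hold the nucleotide. It is shown for the members on which the results turn, as the 24 coding bases of the GENCODE release 21 transcript, with those final 3 codons in capitals. Coding bases 52 to 75 are given for Rab1a, 43 to 66 for Rab1b, 37 to 60 for Rab2a, 58 to 81 for Rab6a, 79 to 102 for Rab5a, 85 to 108 for Rab3d and Rab3a, 46 to 69 for Rab27a and 220 to 243 for Rab26.
Rab1a: ggcgattctggggttGGAAAGTCC
Rab1b: ggtgactccggcgtgGGCAAGTCG
Rab2a: ggcgacacaggtgttGGTAAATCG
Rab6a: ggagagcagagcgttGGAAAGACG
Rab5a: ggagagtctgctgttGGCAAATCA
Rab3d: gggaacagcagcgtgGGCAAGACA
Rab3a: gggaacagcagcgtgGGCAAAACC
Rab27a: ggagactctggggtaGGGAAGACC
Rab26: ggggattccggtgtgGGGAAGACC
The loop pattern was found in 57 of the 59 members, all but Rab40b and Rab40c, and at least 1 cysteine codon stood among the last 5 codons of all 59. Near relatives still differed enough to be counted apart. Coding bases were identical at 76.1% of positions between Rab1a and Rab1b, 73.3% between Rab3a and Rab3d and 66.2% between Rab27a and Rab27b. Only 2 members shared any run of 50 bases with another member, at most 0.96% of their runs. With any other gene, on either strand, 10 members shared over 10% of their runs. Among them were Rab11b (13.63%, most with Rab11b-ps2) and Rab7 (12.67%, most with Rab7-ps1). Rab5b shared 9.8% with Gm13991 and Rab2a 4.51% with Gm5865.

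Total counts ran from 23175708 to 32451653 per library, so that 3 counts amount to 0.0924 to 0.129 CPM, the counts of a gene scaled to a common library size. All 12 Paneth markers had counts in every library. Their summed level was 280600 to 306200 CPM in water and 140200 to 241200 CPM in DSS. In such bulk samples, fewer cells of a type and less RNA per cell cannot be told apart. Summed tuft cell markers, 8 of 8 detected in every library, were at 478 to 530 CPM in water and at 481, 905, 901 and 458 CPM in DSS 1 to 4. Goblet cell markers summed to 9866 to 11020 CPM in water and 7800 to 12950 CPM in DSS. White blood cell markers were at 10.2 to 15.9 CPM in water and 10.5 to 19.8 CPM in DSS, and markers of endothelial, red and mesenchymal cells at 0.357 to 1.39 CPM and 1.19 to 3.47 CPM. The part of these shifts in the results below was not tested. DSS 1 stood nearer to the water libraries than to the other DSS libraries, with a chi-square per degree of freedom between pairs of libraries of 16.4 to 24.3 against water and 43.0 to 59.0 against DSS 2 to 4, while DSS 2 to 4 against water gave 78.6 to 121. RNA was isolated on days that each held mice of 1 group only, so isolation day and DSS cannot be told apart.

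Of the 59 members, 53 carried enough reads to be tested. The other 6 were Rab42, Rab33a, Rab39, Rab9b, Rab38 and Rab7b, with at most 6 counts in any library. Levels are compared between genes per kilobase of counted exon, as CPM per kilobase. Rab2a and Rab1a, both of the path between ER and Golgi, stood highest at 77.4 CPM per kilobase over the 7 libraries, followed by the granule gene Rab3d at 62.7. Behind them came Rab18 of the ER and lipid droplets (43.5), the recycling and apical delivery genes Rab10 (40.6), Rab15 (40.4) and Rab25 (39.2), Rab7 of late endosomes (36.8), Rab5c (35.1), Rab1b (33.6), Rab5a (28.5) and the Golgi gene Rab6a (25.2). Rab2a and Rab1a were thus level with each other, and Rab10, Rab15 and Rab25 differed by less than the spread of Rab15 between libraries. The level of Rab3d exceeded that of 96.4% of the 17449 genes tested. Of the other granule Rabs, Rab27a stood at 16.9 and Rab27b at 9.34 CPM per kilobase, while Rab3a reached 2.92, Rab26 0.440 and Rab37 0.278. In all, 12 tested members lay under 1 CPM per kilobase.

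**Figure D1:**
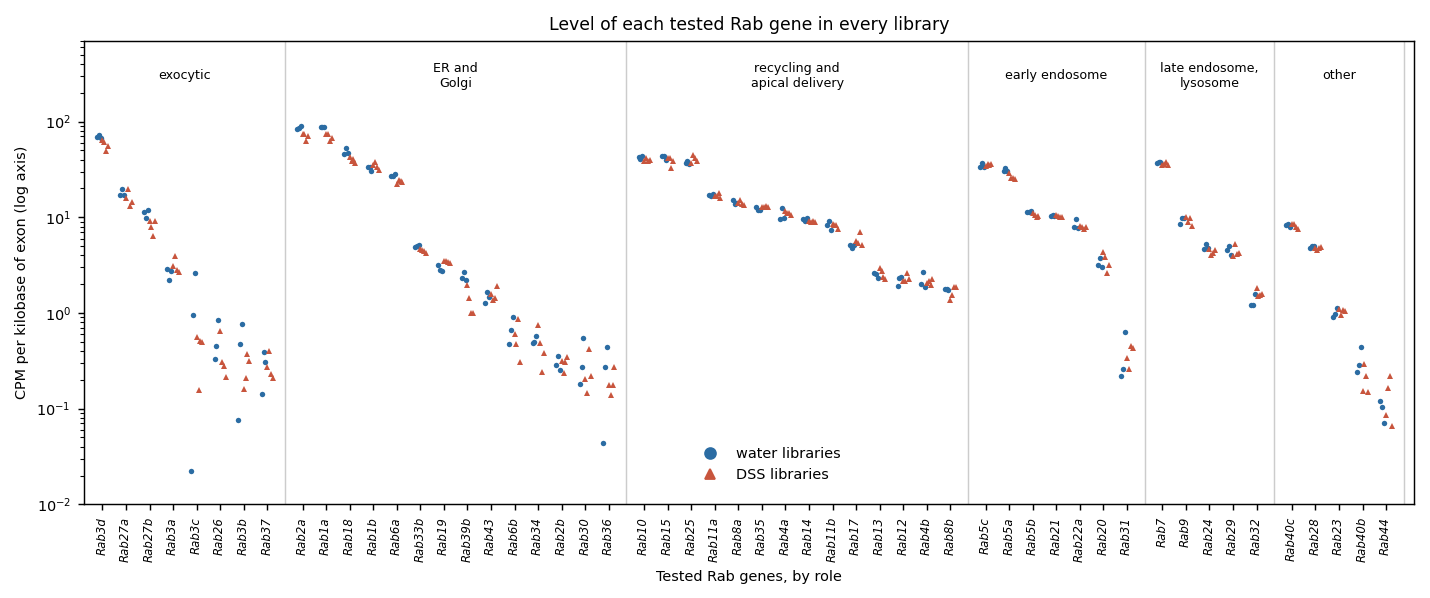
The level of each of the 53 tested members is plotted per library in CPM per kilobase of exon on a log axis, with members grouped by role and ordered by level within it (circles, 3 water libraries; triangles, 4 DSS libraries). Rab2a and Rab1a stand highest at 77.4 CPM per kilobase on average, and the libraries of the abundant members lie close together.

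After DSS no member passed the main test, edgeR's quasi-likelihood test with Benjamini-Hochberg adjustment over all genes, in which 0% of the 17449 genes passed in either direction and the smallest adjusted p of a member was 0.142. At an unadjusted p under 0.05, 8 of 53 members were lower in DSS and 0 higher, beside 7.35% of all genes lower and 8.36% higher. All 4 DSS libraries lay below all 3 water libraries for 11 members, beside 7.52% of all genes, and above them for 1 member, Rab19, beside 7.4%. With DESeq2, the alternative count test, 7 of the 44 members that received an adjusted p fell and 0 rose, beside 2.24% of genes falling and 2.62% rising. Those 7 were Rab1a, Rab2a, Rab18, Rab6a, Rab39b, Rab5a and Rab27b. The median log2 difference, DSS minus water, was -0.06 over the 53 members and -0.0016 over all genes, with 36 estimates below 0 and 17 above.

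**Figure D2:**
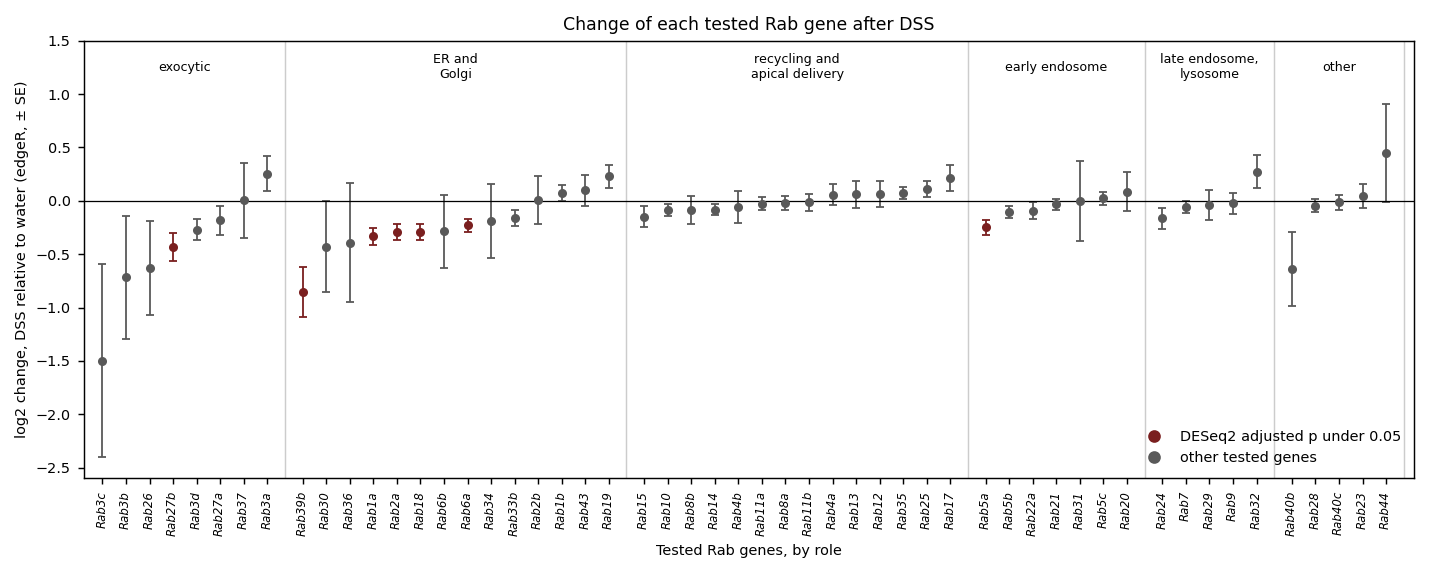
The log2 difference of each tested member (DSS minus water, edgeR estimate with its standard error as bars) is plotted by role, and dark red marks the 7 members with a DESeq2 adjusted p under 0.05. Of these, 5 are ER and Golgi members, 1 is an exocytic member and 1 an early endosome member.

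The members are given here by role, as counts with no test between roles, beside 7.35% of all genes lower at an unadjusted p under 0.05. All DSS libraries lay below all water libraries for 7.52% of all genes. Among the 14 tested ER and Golgi members, 5 were lower at an unadjusted p under 0.05, with a median log2 difference of -0.26, and all DSS libraries lay below all water libraries for 6. Of the 8 exocytic members the same held for 2, Rab3d and Rab27b, with a median of -0.35. The lowest estimates there were those of Rab3c (-1.50 ± 0.90), Rab3b (-0.72 ± 0.58) and Rab26 (-0.63 ± 0.44), whose water and DSS libraries overlapped. Rab3c and Rab3b had 6 counts in water 1, and Rab26 had 20 in DSS 4, so the median leans on thinly counted members. Rab3a (0.26) and Rab37 (0.0045) lay above 0. In the 14 recycling and apical delivery members no p was under 0.05 and the median was -0.02. The 7 early endosome members had 1 such member and a median of -0.03, the 5 late endosome and lysosome members none and -0.04, and the 5 others none and -0.01. Summed over its members, the ER and Golgi group lay between 826 and 850 CPM in water and between 660 and 733 CPM in DSS. Its share of all Rab counts, which no scaling between libraries touches, was 31.7% ± 0.112 on water and 29.7% ± 0.281 after DSS (SD, n = 3 and 4), with no overlap. Most of the group's counts belong to Rab1a, Rab2a, Rab18 and Rab6a. Their means were 333, 185, 110 and 103 CPM in water and 265, 151, 89.55 and 87.5 CPM in DSS. Of the 14 tested ER and Golgi members, 4 had estimates above 0. The sum and the share thus follow those abundant members and are no separate result about the group. The recycling and apical delivery group made up 30.0% ± 0.774 in water and 32.5% ± 0.778 in DSS (SD, n = 3 and 4), although its summed level was no higher in DSS, at 779 to 807 CPM in water and 746 to 798 CPM in DSS. In the same terms the exocytic group made up 19.0% ± 0.615 and 17.2% ± 1.34.

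Rab3d, the main granule Rab of exocrine cells, lies on chromosome 9 (build mm10, as all gene positions here, 21907491 to 21918192, minus strand). Its levels were 289, 301 and 285 CPM in water 1 to 3 and 269, 259, 205 and 234 CPM in DSS 1 to 4. Every DSS library was below every water library, and DSS 3 was lowest. The log2 difference was -0.27 ± 0.10 (SE, edgeR adjusted p 0.239, DESeq2 adjusted p 0.0962), so the gene passed neither test.

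Rab27a (chromosome 9, 73044854 to 73097629, plus strand) was at 67.1, 77.4 and 66.0 CPM in water and 62.4, 77.5, 51.3 and 55.7 CPM in DSS. The groups overlapped, since DSS 2 was level with the highest water library, and the log2 difference of -0.18 ± 0.13 did not pass (edgeR adjusted p 0.549). It depended on single libraries, being -0.31 ± 0.09 without DSS 2, -0.10 ± 0.12 without DSS 3 and -0.11 ± 0.15 without water 2. Its relative Rab27b, which also docks secretory granules, was at 120, 105 and 126 CPM in water and 98.3, 84.1, 67.4 and 97.5 CPM in DSS. All DSS libraries were lower, DSS 3 again the lowest. Rab27b fell with DESeq2 (adjusted p 0.0351) but not with edgeR (log2 difference -0.43 ± 0.13, adjusted p 0.190).

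Rab26, a Rab of maturing secretory granules (chromosome 17, 24527241 to 24534210, minus strand), had between 20 and 58 counts per library. Its levels were 0.936, 1.30 and 2.43 CPM in water and 1.85, 0.883, 0.789 and 0.607 CPM in DSS. Water 3 was highest and DSS 1 next, so the groups overlapped, and the log2 difference of -0.63 ± 0.44 was close to its error (edgeR adjusted p 0.529). It was -0.14 without water 3 and -1.03 without DSS 1. A stretch of 267 of its exon bases also belongs to Traf7, a far more abundant neighbour on the same strand. Rab3a, best known from synaptic vesicles, was at 6.42, 4.95 and 6.16 CPM in water and 6.91, 8.71, 6.28 and 6.00 CPM in DSS, a log2 difference of 0.26 ± 0.16 (edgeR adjusted p 0.483) with overlapping groups.

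Rab3c and Rab3b, vesicle Rabs of neurons and endocrine cells, followed no group. Rab3c was at 0.267, 11.4 and 31.7 CPM in water and 6.78, 1.88, 6.07 and 5.94 CPM in DSS, with an edgeR log2 difference of -1.50 ± 0.90 (adjusted p 0.464) that ran from -2.08 to -0.17 when 1 library was left out. Its highest library was 119 times its lowest, and both were water libraries. The summed level of 10 enteroendocrine markers was 98.4, 1388 and 2455 CPM in water 1 to 3 and 816, 461, 1218 and 1221 CPM in DSS 1 to 4, so water 1 was lowest and water 3 highest for Rab3c and for the markers alike. Rab3b stood at 0.267, 1.68 and 2.68 CPM in water and 0.572, 0.736, 1.30 and 1.12 CPM in DSS, with the same lowest and highest libraries. The highest library of Rab3d was 1.47 times its lowest. Rab36 had the same lowest and highest libraries as Rab3c, at 0.267 CPM in water 1 and 2.72 CPM in water 3. Water 3 was also highest for Rab26, Rab30, Rab6b and Rab31, of which only Rab31 was lowest in water 1. Abundant members such as Rab2a (190 CPM), Rab10 (152 CPM), Rab27b (126 CPM) and Rab6a (106 CPM) were highest in water 3 too. A maximum in water 3 was therefore not particular to genes that varied like Rab3c. The part of enteroendocrine cells in the values of Rab3c, Rab3b and the other genes named here was not tested.

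**Figure D3:**
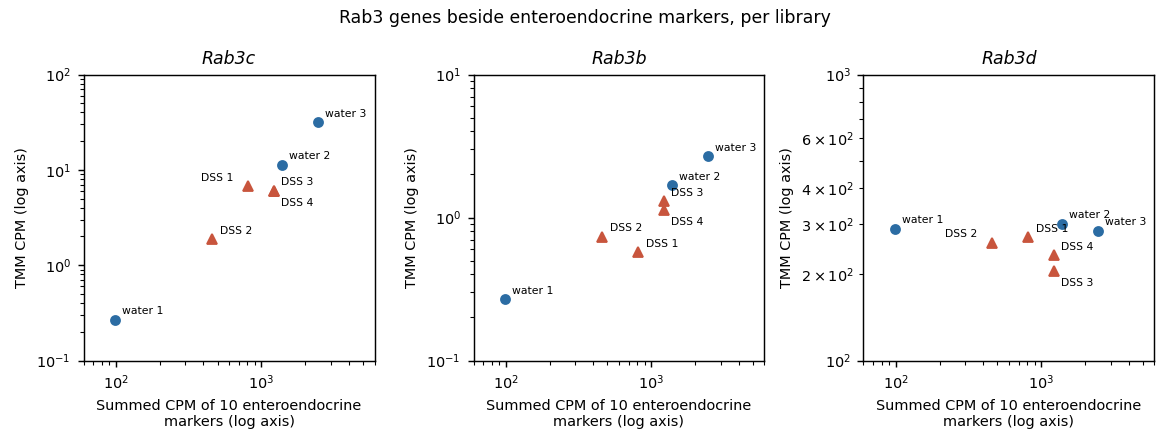
Levels of Rab3c, Rab3b and Rab3d (CPM, log axis) are plotted against the summed CPM of 10 enteroendocrine markers (log axis), with 1 labelled point per library. Rab3c runs from 0.267 CPM in water 1 to 31.7 CPM in water 3, while Rab3d stays between 205 and 301 CPM.

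Rab1a, which steers vesicles from the ER to the Golgi, lies on chromosome 11 (20201432 to 20226856, plus strand). It was at 334, 334 and 332 CPM in water and 283, 285, 239 and 253 CPM in DSS. The water libraries were nearly equal and all DSS libraries lower, with a log2 difference of -0.33 ± 0.08 (edgeR adjusted p 0.142, DESeq2 adjusted p 0.00452). Rab1b, the second Rab1 gene, went the other way in sign, at 62.0, 62.3 and 55.7 CPM in water and 65.0, 68.8, 61.1 and 57.4 CPM in DSS. Its groups overlapped and its log2 difference was 0.07 ± 0.08 (edgeR adjusted p 0.70).

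Rab2a, of transport between the ER and Golgi, lies on chromosome 4 (8535644 to 8607778, plus strand) and was at 180, 184 and 190 CPM in water and 157, 159, 135 and 152 CPM in DSS. All DSS libraries were lower (log2 difference -0.29 ± 0.07, edgeR adjusted p 0.143, DESeq2 adjusted p 0.00923). Rab18 was at 104, 119 and 106 CPM in water and 95.7, 87.2, 92.3 and 83.0 CPM in DSS, again without overlap (-0.29 ± 0.07, edgeR adjusted p 0.148, DESeq2 adjusted p 0.0201). Rab6a, of transport through and out of the Golgi, was at 102, 100 and 106 CPM in water and 82.3, 92.3, 88.5 and 86.9 CPM in DSS. Here DSS 1 was lowest, in contrast to Rab1a, Rab2a and Rab3d, where DSS 3 was. The log2 difference of Rab6a was -0.23 ± 0.06 (edgeR adjusted p 0.157, DESeq2 adjusted p 0.031), and 18.99% of its exon bases overlap Mrpl48 on the opposite strand, whose reads cannot be told apart there without strand.

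Rab39b, a Golgi-associated member known mainly from neurons, had the largest difference of the 7. It was at 7.98, 9.22 and 7.54 CPM in water and 6.74, 4.85, 3.43 and 3.37 CPM in DSS, a log2 difference of -0.85 ± 0.23 (edgeR adjusted p 0.169, DESeq2 adjusted p 0.0172). All DSS libraries were lower, DSS 1 least so, and without DSS 1 the difference was -1.08 and passed with edgeR. Without DSS 1, 168 of all 17319 genes tested also passed as higher and 135 as lower, Rab39b among the latter. Of the exon bases of Rab39b, 18.64% overlap Gm15063, which had at most 3 counts in any library. Rab33b of the Golgi was lower in all DSS libraries by a small margin (log2 difference -0.16 ± 0.07, edgeR adjusted p 0.346). Rab19, another Golgi member, was the only tested member above water in all DSS libraries, at 4.99, 4.47 and 4.36 CPM in water and 5.46, 5.53, 5.42 and 5.19 CPM in DSS (0.23 ± 0.11, edgeR adjusted p 0.354).

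**Figure D4:**
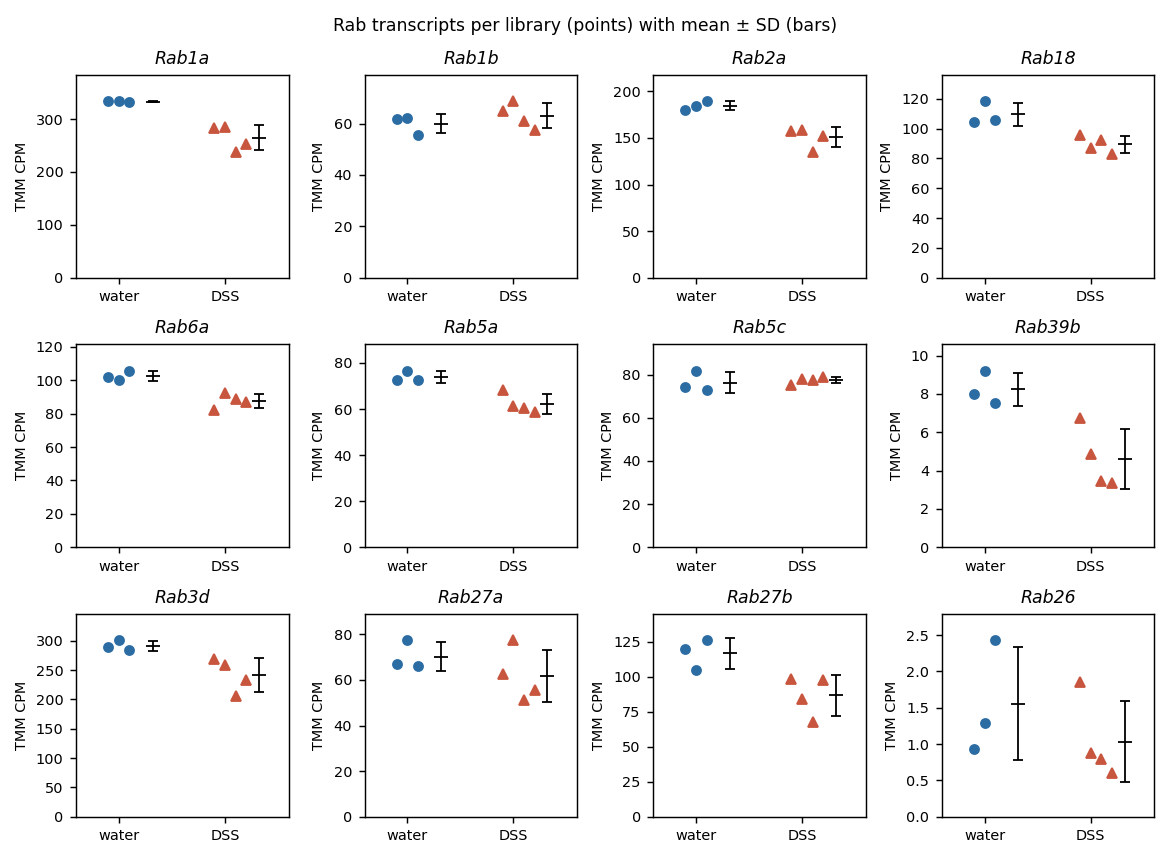
Levels of 12 members are plotted per library in TMM-normalised CPM on linear axes from 0 (circles, water; triangles, DSS; bars, mean ± SD, n = 3 and 4). Rab1a, Rab2a, Rab18, Rab6a, Rab5a, Rab39b, Rab3d and Rab27b show no overlap between groups, whereas Rab1b, Rab5c, Rab27a and Rab26 do.

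Promoter windows of 250 bases before to 50 after each start were read for 48 members from RefSeq (build GRCm38.p6), and 11 members had none. They were searched on both strands for TGACGT, the core of sites for CREB and ATF factors, for CCACG, a part of the ER stress element, and for the E-boxes CATATG and CAGCTG, a kind of site that basic helix-loop-helix factors such as Mist1 bind. The 48 members have 60 windows, since some have several starts. TGACGT stood in 11.7% of these and in 7.5% of all 32851 windows, which is 7 windows of 7 members. CCACG stood in 40.0% of the Rab windows and 32.8% of all, CAGCTG in 23.3% and 16.3%, and CATATG in 1.7%, a single window of Rab27a, and 3.9%. Of the 7 members that fell with DESeq2, 4 had a window, and the windows of Rab5a and Rab6a held TGACGT. The other members with TGACGT did not fall with DESeq2. They were Rab25 (log2 difference 0.12), which also held TGACGTCA, Rab3a (0.26), Rab11b (-0.01), Rab21 (-0.03) and the untested Rab39. The windows of Rab5a, Rab6a and Rab3d, the most abundant granule Rab, are shown with the motifs in capitals. They lie at chr9:21918134-21918433 on the minus strand for Rab3d, at chr17:53478984-53479283 on the plus strand for Rab5a and at chr7:100607336-100607635 on the plus strand for Rab6a.
Rab3d: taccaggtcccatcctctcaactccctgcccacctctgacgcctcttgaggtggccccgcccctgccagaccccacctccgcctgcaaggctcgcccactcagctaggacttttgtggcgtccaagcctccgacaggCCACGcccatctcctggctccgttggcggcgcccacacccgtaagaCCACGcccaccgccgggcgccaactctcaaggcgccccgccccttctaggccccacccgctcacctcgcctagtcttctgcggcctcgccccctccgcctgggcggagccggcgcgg
Rab5a: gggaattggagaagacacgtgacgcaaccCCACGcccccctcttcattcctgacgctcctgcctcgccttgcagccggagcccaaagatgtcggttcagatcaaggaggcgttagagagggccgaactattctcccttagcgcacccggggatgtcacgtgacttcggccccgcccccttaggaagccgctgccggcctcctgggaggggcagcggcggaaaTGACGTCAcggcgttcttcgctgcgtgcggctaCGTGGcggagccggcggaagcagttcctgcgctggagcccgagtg
Rab6a: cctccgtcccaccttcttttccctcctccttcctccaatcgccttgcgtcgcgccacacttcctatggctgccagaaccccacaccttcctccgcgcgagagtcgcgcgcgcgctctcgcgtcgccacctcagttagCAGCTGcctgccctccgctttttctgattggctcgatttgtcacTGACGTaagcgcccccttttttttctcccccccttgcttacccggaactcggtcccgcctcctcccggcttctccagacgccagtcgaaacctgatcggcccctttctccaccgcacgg
Rab3d holds CCACG at a pair of places, Rab5a the palindrome TGACGTCA with CCACG on each strand, and Rab6a TGACGT with CAGCTG. The window of Rab1a held none of the 4 motifs. A match describes the letters only and shows no binding.

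Rab5a, which drives fusion of early endosomes, lies on chromosome 17 (53479234 to 53507671, plus strand). It was at 72.6, 76.7 and 72.5 CPM in water and 68.4, 61.3, 60.6 and 58.7 CPM in DSS. All DSS libraries were lower, DSS 1 least so, with a log2 difference of -0.25 ± 0.07 (edgeR adjusted p 0.164, DESeq2 adjusted p 0.0445). Rab5b was at 47.4, 47.3 and 48.4 CPM in water and 46.9, 44.6, 42.6 and 43.3 CPM in DSS, lower without overlap by a smaller amount (-0.11 ± 0.06, edgeR adjusted p 0.401). Rab5c was level, at 74.1, 81.9 and 72.9 CPM in water and 75.4, 78.2, 77.3 and 78.8 CPM in DSS (0.02 ± 0.06, edgeR adjusted p 0.901).

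Among the recycling, apical and late endosomal members no unadjusted edgeR p was under 0.05, beside 8.36% of all genes higher and 7.35% lower. Rab10, of vesicle delivery to the plasma membrane, differed by -0.09 ± 0.06 on the log2 scale, Rab14 of traffic between Golgi and endosomes by -0.08 ± 0.05, and Rab7 by -0.06 ± 0.05. For Rab14 all DSS libraries lay below all water libraries by a bare margin, beside 7.52% of all genes. Rab15, of endocytic recycling, was at 203, 204 and 185 CPM in water and 191, 194, 150 and 177 CPM in DSS, overlapping, with a log2 difference of -0.15 ± 0.10 (edgeR adjusted p 0.496). Rab25, the epithelial relative of Rab11, was at 62.3, 65.4 and 60.3 CPM in water and 61.8, 74.8, 69.7 and 65.0 CPM in DSS, a log2 difference of 0.12 ± 0.07 (edgeR adjusted p 0.50). The remaining members with the smallest p among positive estimates were Rab17 of epithelial apical traffic (0.21 ± 0.12), Rab32 of lysosome-related organelles (0.27 ± 0.15), Rab35 of endocytic recycling (0.07 ± 0.06) and Rab44, a large atypical member (0.45 ± 0.46). None of these 4 passed with edgeR, the smallest adjusted p being 0.425 for Rab32. Of the 28 members above 10 CPM, the highest library exceeded the lowest by 1.06 to 1.87 times.

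Because scaling between libraries moves all members together, near relatives were also compared within each library, where it cancels out. The 11 pairs share a Rab number and had at least 20 counts in every library, and they were chosen after their values were seen. The ratio of Rab1a to Rab1b counts was 5.39, 5.36 and 5.95 in water and 4.36, 4.14, 3.91 and 4.41 in DSS, so that every DSS library had less Rab1a per Rab1b (log2 difference -0.41). Rab5a per Rab5c was 0.979, 0.937 and 0.995 in water and 0.907, 0.784, 0.783 and 0.744 in DSS (-0.27), and Rab5a per Rab5b was also lower in all DSS libraries (-0.14). Rab3a per Rab3d was higher in all DSS libraries, at 0.0222, 0.0164 and 0.0216 in water and 0.0257, 0.0337, 0.0306 and 0.0257 in DSS (0.53). Each of these 4 ratios had a two-sided exact permutation p of 0.0571, the smallest that 3 against 4 libraries allow, and an adjusted p of 0.157 over the 11 ratios, so none could pass 0.05. Rab27a per Rab27b overlapped between groups (0.24, exact permutation p 0.286).

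**Figure D5:**
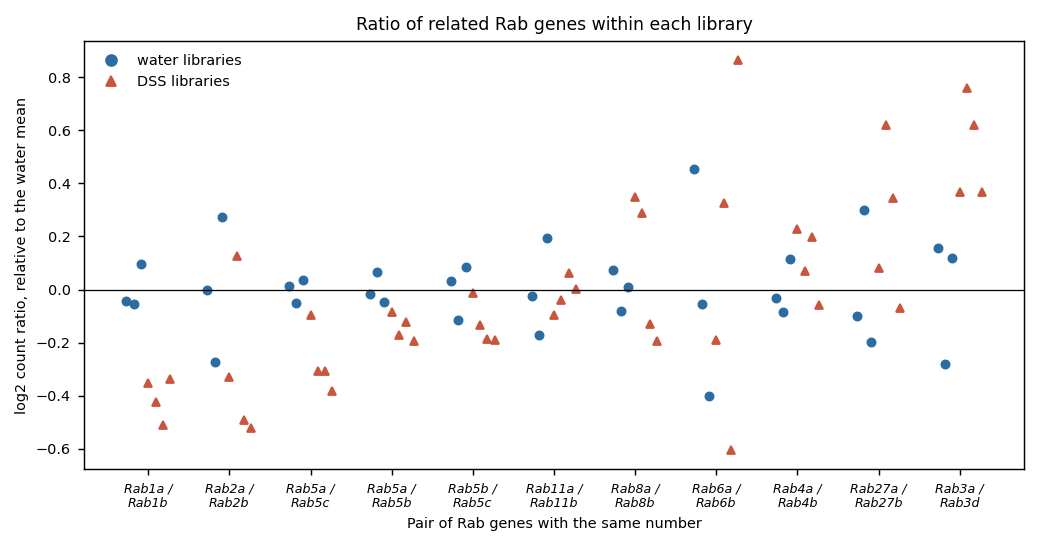
The log2 ratio of counts of 11 pairs of related members is plotted per library, relative to the mean of the water libraries (circles, water; triangles, DSS). The groups do not overlap for Rab1a over Rab1b, Rab5a over Rab5c, Rab5a over Rab5b and Rab3a over Rab3d.

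The genes that act on Rab proteins or bind them were taken as 7 lists with 200 genes in the files, of which 191 were tested. None passed with edgeR. At an unadjusted p under 0.05, 10 were higher and 17 lower in DSS, beside 8.36% and 7.35% of all genes. With DESeq2, 2 rose and 5 fell, beside 2.62% and 2.24% of all genes, so these counts were near the background and are no result about the lists. The lowest p belonged to Uso1, the p115 tether that binds Rab1 on vesicles bound for the Golgi, at 230, 228 and 226 CPM in water and 190, 175, 162 and 159 CPM in DSS. All its DSS libraries were lower, with a log2 difference of -0.41 ± 0.08 (edgeR adjusted p 0.124, DESeq2 adjusted p 0.000143). Among the 42 effectors of other Rabs, 2 were higher and 5 lower at that p. They included Mical1, an actin-oxidising effector, which rose with DESeq2 (0.55 ± 0.15), the golgin Golga5 (-0.25 ± 0.09) and the endosomal adaptor Appl2 (-0.24 ± 0.09).

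Counts of single lists are given beside 8.36% of all genes higher and 7.35% lower at an unadjusted p under 0.05, with no test of a list. Of the 50 exchange factors, 5 were higher and 3 lower at that p. Rin2, an exchange factor for Rab5, was at 66.0, 67.7 and 64.6 CPM in water and 57.8, 41.8, 48.5 and 38.2 CPM in DSS, all lower, and fell with DESeq2 (-0.51 ± 0.13, edgeR adjusted p 0.148, DESeq2 adjusted p 0.00907). Sbf2 rose with DESeq2 (0.30 ± 0.07), while Trappc6b, a TRAPP subunit (-0.22 ± 0.07), and Rin3 (-0.28 ± 0.10) passed neither test. Of the 37 GTPase-activating proteins, 1 was higher and 7 were lower at that p. Tbc1d15, which acts on Rab7, was at 119, 113 and 107 CPM in water and 100.2, 82.6, 80.8 and 76.5 CPM in DSS, all lower, and fell with DESeq2 (-0.41 ± 0.09, adjusted p 0.00525), as did Tbc1d30 (-0.39 ± 0.10). Tbc1d8b and Sgsm1 differed by -0.32 ± 0.09 and -0.42 ± 0.12 and passed neither.

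The machinery that keeps Rabs soluble and prenylated stood near water. Of 11 GDI, escort and prenylation genes none had an unadjusted p under 0.05, beside 8.36% of all genes higher and 7.35% lower. Gdi2, a GDI protein, differed by -0.09 ± 0.06, Rabggtb, a subunit of the Rab geranylgeranyl transferase, by 0.12 ± 0.07, and the escort proteins Chm and Chml by -0.08 ± 0.10 and 0.10 ± 0.12. Of 15 tested effectors of Rab3 and Rab27, 0 were higher and 1 was lower at that p. It was Unc13b, a priming factor (-0.15 ± 0.06), beside Mlph, which links Rab27a to myosin (-0.15 ± 0.07), Myo5a (-0.33 ± 0.16) and Sytl5 (-0.34 ± 0.18). Of 27 exocytic SNAREs and partners 1 was higher, Stx4a (0.19 ± 0.07), and 1 lower, Snap23, at 57.5, 60.6 and 54.2 CPM in water and 49.0, 48.7, 42.0 and 46.3 CPM in DSS. Snap23 fell with DESeq2 (-0.31 ± 0.07, adjusted p 0.0201). Stx8 and Vamp2 differed by -0.19 ± 0.09 and -0.13 ± 0.07. Of 9 exocyst subunits Exoc8 was higher at that p (0.23 ± 0.07) and Exoc4 stood at -0.16 ± 0.07, while Exoc6b and Exoc6 were at -0.04 ± 0.07 and 0.05 ± 0.09. Outside the 7 lists, 9 secretory cell transcription factors had a median log2 difference of -0.01, with 4 estimates above 0 and 5 below. With DESeq2, 2 of them fell, beside 2.24% of all genes. Xbp1, a factor of the unfolded protein response, was at 309, 380 and 331 CPM in water and 287, 233, 231 and 259 CPM in DSS, and fell with DESeq2 (-0.43 ± 0.10, adjusted p 0.00469), as did Creb3l2 (-0.47 ± 0.14, adjusted p 0.0309). Bhlha15, which encodes Mist1, was at 292, 256 and 262 CPM in water and 270, 315, 196 and 245 CPM in DSS, overlapping (-0.08 ± 0.14, edgeR adjusted p 0.849).

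Scaling by library totals alone shifted all genes, and the family with them. TMM factors were 0.899 to 0.922 in water and 0.980 to 1.14 in DSS. With library totals only, the median log2 difference of all genes moved to 0.23 and that of the family to 0.18, and 39 of 53 estimates lay above 0. With RLE size factors and with TMM factors computed without granule genes, 17 did, as in the main comparison. Rab1a, Rab2a, Rab3d, Rab18, Rab5a, Rab27b and Rab39b stayed below 0 on that scale, at -0.10, -0.06, -0.04, -0.06, -0.02, -0.20 and -0.63, while Rab6a turned to 0.0075. Relative to the shift of all genes, each stayed lower. The second number of the run code, whose meaning the labels do not give, was 6 for all water libraries and DSS 4. It was 8 for DSS 1 and DSS 3, with none recorded for DSS 2, so it partly goes with DSS. Subsets by this number or by age leave 1 library in a group. That library is then assumed to vary like the others. In libraries that share the second number of their run code (water 1 to 3 and DSS 4), the log2 differences of Rab1a, Rab2a, Rab3d, Rab39b and Rab27b were -0.40, -0.29, -0.32, -1.30 and -0.27. In 10-week mice only (water 3 and DSS 2 to 4) they were -0.35, -0.35, -0.29, -0.95 and -0.60. Without DSS 2 and DSS 3, the libraries with high tuft cell markers, they were -0.31, -0.26, -0.21, -0.72 and -0.26. Over all 7 libraries Rab27b was at -0.43, so its size depended on the libraries taken.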

How the data were processed

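RNA counts per gene were deposited for 7 libraries, as raw counts that featureCounts 1.5.3 made on GENCODE release 15, per the file headers. The headers also show that strand was not used, that only primary alignments were counted and that a read had to overlap an exon by a fraction of 0.8. Per the submitters' processing notes, the tools were DESeq2, featureCounts 1.5.2 and STAR 2.5.3a on mm10. Exon lengths are those the authors deposited beside the counts. Symbols came from GENCODE release 21 by identifier, for 52403 genes with 147 unmatched. Coordinates are mm10.

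The counts were scaled with TMM factors and tested with edgeR 4.0.16 in R 4.3.3 (filterByExpr, quasi-likelihood, no covariate, threshold 0.05 after Benjamini-Hochberg). DESeq2 1.42.0 and limma 3.58.1 were alternatives. On simulated data over 17141 genes the edgeR step recovered 65.7% of 67 genes given a 1.5-fold difference, and 18 genes with none were called. Differences under 1.5-fold, as for the members that fell with DESeq2 other than Rab39b, were not simulated. How often edgeR would recover those is therefore not known. Replicates are numbered in accession order. The members, lists and tests were chosen with earlier results of these data known. Genes named are Rab3d, Rab26 and Rab27a, the 12 members highest per kilobase, the 8 with the smallest p in each direction and up to 4 per regulator list. Others were named after their values were seen. In all, 19 members share exon bases with another gene, 14 of them on the opposite strand, and their values are uncertain to that degree. That concerns above all Rab43, Rab4b, Rab24 and Rab2b.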

Additional observations from a re-analysis of the deposited data

Results flagged for a closer look

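Among the 53 tested members, 2 had a DSS library that stood apart from the other 3 by more than Dixon's 95% limit for 4 samples, where chance alone gives about 1 in 20 groups. For Rab35, DSS 3 was highest at 37.4 CPM beside 35.8 to 36.0 CPM, a gap of 0.847 of the range. For Rab3c, DSS 2 was lowest at 1.88 CPM beside 5.94 to 6.78 CPM, a gap of 0.897 of the range.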

How the results depend on the processing

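With library totals only, 3 members (Rab25, Rab1b and Rab19) passed as higher and 0 as lower, beside 2084 and 28 of all genes and 19 regulators and effectors higher, and Rab10, Rab15, Rab7, Rab6a and Rab27a turned to 0.15, 0.0803, 0.18, 0.0075 and 0.0442. DESeq2 called 7 members lower, 346 and 296 of all genes higher and lower, and 2 and 5 regulators and effectors. With no low-count filter, 2 members (Rab27b and Rab39b) passed as lower, beside 240 and 201 of all genes and 2 and 4 regulators and effectors. With run code 6 only, which leaves 1 DSS library, 3 and 6 of all genes passed and 10 of 53 members turned in sign, among the named Rab1b and Rab44 (-0.0691 and -0.56). With 10-week mice only, which leaves 1 water library, 11 turned, among the named Rab32 (-0.0291). The lone library is assumed to vary like the others. Rab5c ran from -0.0087 (without water 3) to 0.0744 when 1 library was left out. Leaving out 1 library at a time gave 0 to 1 members lower (Rab39b without DSS 1), 0 to 168 of all genes higher, 0 to 135 lower and 0 to 3 regulators and effectors lower (Rin2, Uso1 and Tbc1d15 without DSS 1). DSS 1 is the DSS library nearest to water. Without DSS 4, 9 genes passed as higher. The cause was not tested. No member passed with RLE size factors in edgeR, scaling without granule genes, age as a covariate, limma-voom, at least 1 CPM in 4 libraries, run code 6 or 10-week mice only or, added after seeing the data, without DSS 2 and DSS 3. No paired analysis was possible because replicate numbers follow accession order and pair nothing. Depth limits Rab26, Rab44 and the untested members.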
